A study of Mus musculus with 14 samples.

Results

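The trace amine-associated receptor genes (Taar genes) of the mouse lie in 1 cluster on chromosome 10. Of the 16 Taar symbols in the tables of 51211 gene symbols, 10 were followed here: Taar2, Taar3, Taar4, Taar5, Taar6, Taar7a, Taar7b, Taar7f, Taar8b and Taar9. The rule names them by symbol and uses no measured value, but they were picked with earlier results of these data known. Whole olfactory epithelium was taken from 14 individual mice at postnatal day 5 in 2 experiments. In the first, 3 mice that carried OMP-IRES-tTA and tetO-Kir2.1-IRES-tauLacZ (Kir2.1 mice) were compared with 3 control mice heterozygous for OMP-IRES-tTA alone. In the second, 4 wild type mice exposed to 2-phenylethylamine (PEA) from day 0 to day 5 were compared with 4 wild type control mice that had no PEA. All 6 mice of the first experiment carry tTA under the Omp locus, so that tTA, and with it the Kir2.1 potassium channel, is made in mature olfactory sensory neurons and not in their precursors. The sample records call the Kir2.1 mice Kir2.1-off, a name the paper uses for mice later fed doxycycline, but state no doxycycline for these pups. The records give C57BL/6 for every mouse, while the methods give CD-1 for the PEA pups. The Kir2.1 comparison asks what follows from silencing the neurons during development, and the PEA comparison what follows from early contact with an odor that is innately aversive to mice.

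TAARs are G protein-coupled receptors for volatile amines. In the nose each is used by its own small set of olfactory sensory neurons, most of them in the dorsal zone, which choose 1 Taar gene in place of an odorant receptor (Olfr) gene and send axons to glomeruli of the dorsal bulb. They signal through the same cascade as odorant receptors, by the G protein subunit encoded by Gnal, adenylyl cyclase 3 (Adcy3) and the cyclic nucleotide-gated channel (Cnga2). TAAR4 is a high-affinity receptor for PEA, TAAR5 is the receptor for trimethylamine, and TAAR1 is the member that acts in the brain and is not used as an odor receptor.

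The cluster spanned 189.2 kb of GRCm38 (chr10:23920356-24109534) and held 16 Taar loci, 15 of them protein coding and 1 the pseudogene Taar7c-ps. No protein-coding gene of another family lay inside it (0 in GENCODE vM21). Taar2 (chr10:23938572-23941583), Taar3 (chr10:23949558-23950589), Taar4 (chr10:23960494-23961537) and Taar5 (chr10:23970706-23971719) followed each other on the plus strand. Taar6 (chr10:23984609-23985646) and Taar7a (chr10:23992405-23993481) came next on the minus strand, then Taar7b (chr10:23999939-24001015) and Taar7f (chr10:24049510-24050586) on the plus strand. Taar8b (chr10:24091260-24092294) and Taar9 (chr10:24108488-24109534) closed the cluster on the minus strand. Taar2 had 2 exons in the annotation and the other 9 followed genes had 1. These gene models hold coding sequence without untranslated regions, so lengths below are coding lengths and no promoter could be placed from them.

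How far a read can be given to 1 Taar gene depends on how alike the genes are. Aligned coding sequences within the Taar7 group were 91.7% to 95.4% identical (median 93.7%, 10 pairs), and those within the Taar8 group 96.6% to 98.1% (3 pairs). Genes of different number were 50.3% to 78.9% identical (median 55.3%, 78 pairs), and Taar4 was at most 59.5% identical to any gene of another number. The window of 60 coding bases in which Taar7a, Taar7b and Taar7f were most alike shows the case in which a read tells nothing about its gene (chr10:23992473-23992532 minus strand in Taar7a, chr10:24000888-24000947 plus strand in Taar7b and chr10:24050459-24050518 plus strand in Taar7f). It is printed 5' to 3' with the aligned windows of 5 other members, and capitals mark the bases that differ from Taar7a:
Taar7a: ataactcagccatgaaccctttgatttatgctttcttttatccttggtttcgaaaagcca
Taar7b: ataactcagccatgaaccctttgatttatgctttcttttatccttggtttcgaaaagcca
Taar7f: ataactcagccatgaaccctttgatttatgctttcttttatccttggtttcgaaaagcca
Taar8b: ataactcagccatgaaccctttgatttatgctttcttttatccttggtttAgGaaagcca
Taar6: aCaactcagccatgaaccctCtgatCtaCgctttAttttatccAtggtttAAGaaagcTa
Taar9: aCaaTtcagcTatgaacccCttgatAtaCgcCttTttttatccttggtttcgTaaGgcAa
Taar4: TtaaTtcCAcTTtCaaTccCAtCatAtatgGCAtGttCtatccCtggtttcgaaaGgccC
Taar5: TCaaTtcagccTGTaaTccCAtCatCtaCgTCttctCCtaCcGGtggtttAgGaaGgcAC
The 3 Taar7 genes were the same at all 60 positions, and Taar8b differed from them at 2. Taar6 differed at 10, Taar9 at 11, Taar4 at 20 and Taar5 at 24, so that a read of 40 bases from this place can name Taar4 or Taar5 but not a Taar7 gene. The window in which the 3 Taar7 genes were least alike shows the other extreme (chr10:23993167-23993226 minus strand in Taar7a, chr10:24000194-24000253 plus strand in Taar7b and chr10:24049765-24049824 plus strand in Taar7f), with capitals again for bases that differ from Taar7a:
Taar7a: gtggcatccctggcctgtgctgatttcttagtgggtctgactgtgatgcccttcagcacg
Taar7b: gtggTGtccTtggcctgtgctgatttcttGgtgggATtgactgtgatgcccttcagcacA
Taar7f: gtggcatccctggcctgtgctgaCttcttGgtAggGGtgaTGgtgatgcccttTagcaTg
Here Taar7b differed from Taar7a at 7 of 60 bases and Taar7f at 9.

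Counted over whole transcripts, 0% of the stretches of 40 bases of Taar2, Taar3, Taar4 and Taar5 occurred in any other gene. The shares were 47.8% for Taar7a, 48.2% for Taar7b, 57.9% for Taar7f and 62.9% for Taar8b. With stretches of 150 bases, the read length of the PEA experiment, the shares of the same 4 genes were 3.56%, 3.56%, 21.1% and 4.18%. The values of Taar7 and Taar8 genes in the Kir2.1 experiment, read at 40 bases, were therefore in large part divided between genes by estimation, and they are uncertain one by one. Every stretch of 31 bases shared with another gene was shared with another Taar gene (0 transcripts outside the family). Sums over the Taar7 or Taar8 loci avoid the division within each group. They do not avoid division between the groups, as Taar8b matches the Taar7 genes over more than 40 bases of the first window above. How much is shared between the groups was not counted.

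**Figure D1:**
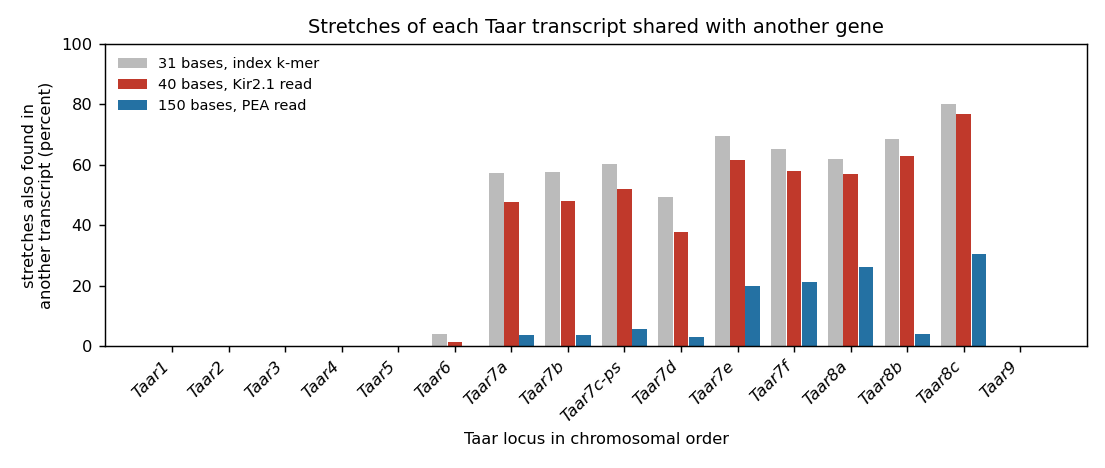
Percent of the stretches of each Taar transcript, in chromosomal order, that also occur in the transcript of another gene, for stretches of 31, 40 and 150 bases (GENCODE vM21). At 40 bases the followed Taar7 and Taar8 genes stand between 47.8% and 62.9%, and Taar2 to Taar5 at 0%.

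The deposited values are normalized counts: Salmon estimates per gene that the authors scaled to the size of each library. Their totals per mouse are set by that scaling and do not give read depth. The 2 tables were normalized separately and are compared only within an experiment. Omp, a marker of mature neurons, was at 33338 in the Kir2.1 controls and 6817 in the PEA controls, so both tissues hold the neurons that use Taar genes. Kcnj2, which encodes Kir2.1, had a mean of 1111 in the controls and 20216 in the Kir2.1 mice, as its labels say. Vomeronasal receptor genes, which the olfactory epithelium itself does not use, had a mean log2(normalized count + 1) of 2.47 in control 1 of the Kir2.1 experiment, where all others lay between 0.646 and 0.700. In the PEA experiment their mean was 2.41, 1.86, 1.54 and 0.502 in controls 1 to 4, and 2.16, 0.673, 0.538 and 0.516 in exposed mice 1 to 4. Xist, made in females, was at 13.3 and 14.4 in PEA controls 1 and 2 and at 8.14 in exposed mouse 3. It was at 12509 or more in the other PEA mice, so sex was not balanced between the PEA groups. In the Kir2.1 experiment Xist was low in mouse 3 of each group (3.02 in the control and 22.1 in the Kir2.1 mouse).

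All 10 Taar genes were above 0 in every mouse. In the Kir2.1 controls their levels per kb of coding length (normalized counts per kb, mean ± SD, n = 3) ran from 90.3 ± 14.4 for Taar6 to 15.05 ± 7.04 for Taar8b, a 6.00-fold range. Taar7f, Taar7a, Taar2, Taar9, Taar5, Taar7b, Taar4 and Taar3 stood between them in that order. Only 1 of the 9 neighbouring pairs in this order, Taar7a above Taar2, had levels that did not overlap between mice. In the Kir2.1 mice Taar2 was at the top with 42.9 ± 5.50 per kb, beside Taar6 with 41.7 ± 14.2, and Taar8b was again at the bottom with 9.69 ± 1.65. In that order 2 of 9 neighbouring pairs did not overlap, Taar5 above Taar3 and Taar9 above Taar8b.

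In the PEA controls Taar7a was at the top with 33.3 ± 16.4 per kb (n = 4) and Taar3 at the bottom with 3.08 ± 1.29, a 10.8-fold range in which 0 of 9 neighbouring pairs were apart. In the exposed mice Taar7a was at 35.98 ± 9.9999 and Taar3 at 2.69 ± 2.78 per kb, a 13.4-fold range with 1 pair apart, Taar2 above Taar7b. Taar1, the non-olfactory member, was at 0 in all mice but 1, an exposed mouse at a normalized count of 1.297.

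**Figure D2:**
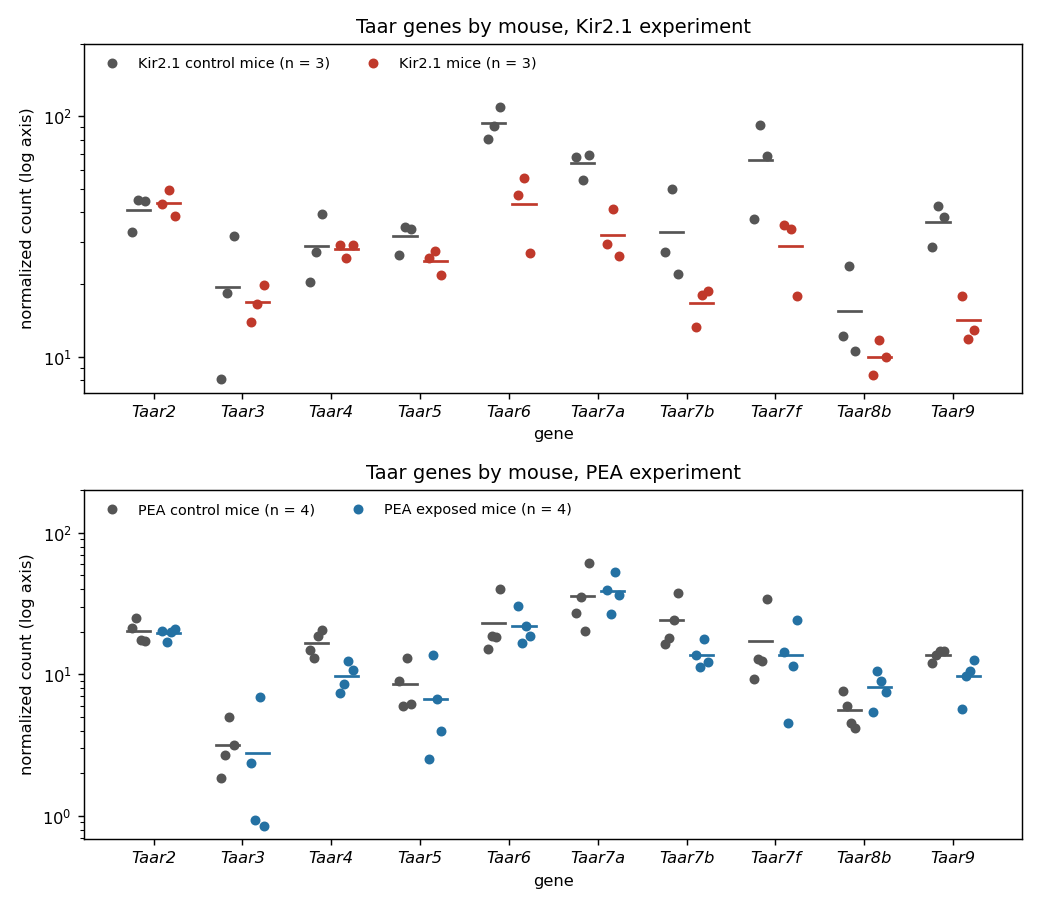
Normalized counts of the 10 Taar genes in every mouse, on a log axis, with controls in grey and treated mice in colour. Points are mice and short lines are group means. In the Kir2.1 experiment the points of Taar6, Taar7a, Taar7b, Taar7f and Taar9 do not overlap between the groups, and in the PEA experiment those of Taar4 do not.

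In the Kir2.1 experiment the values of Taar2, Taar3, Taar4, Taar5 and Taar8b overlapped between the groups, while Taar6, Taar7a, Taar7b, Taar7f and Taar9 had lower values in every Kir2.1 mouse than in any control. None of the 10 passed adjustment over all genes. Fewer neurons that use a Taar gene and less of its RNA per neuron cannot be told apart in whole tissue.

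Taar9, the last gene of the cluster, had normalized counts of 28.7, 42.3 and 38.1 in control mice 1 to 3 and of 17.9, 11.9 and 12.96 in Kir2.1 mice 1 to 3. The lowest control stood above the highest Kir2.1 mouse. Its log2 fold change was -1.29 (SE 0.31, 95% interval -2.03 to -0.56, unadjusted p = 0.0041, adjusted p = 0.190 by limma, Benjamini-Hochberg over 19807 genes).

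Taar6 had 80.3, 91.0 and 109.8 in the controls and 47.2, 55.7 and 26.9 in the Kir2.1 mice, again without overlap. Its log2 fold change was -1.15 (SE 0.30, 95% interval -1.86 to -0.43, limma unadjusted p = 0.0065, adjusted p = 0.222). Taar9 and Taar6 share few or no stretches of 40 bases with other genes (0% for Taar9 and 1.40% for Taar6), so the lower values were not limited to genes whose reads are divided.

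Taar7a had 67.8, 54.3 and 69.4 in the controls and 29.5, 41.1 and 26.2 in the Kir2.1 mice. Its log2 fold change was -0.98 (SE 0.25, 95% interval -1.58 to -0.38, limma unadjusted p = 0.0060, adjusted p = 0.217). Taar7f had 37.5, 91.9 and 68.2 in the controls and 35.2, 34.0 and 17.8 in the Kir2.1 mice, with control 1 only just above Kir2.1 mouse 1 (log2 fold change -1.12, SE 0.41, limma adjusted p = 0.373). Taar7b had 27.2, 49.7 and 22.0 against 13.3, 18.0 and 18.9 (log2 fold change -0.87, SE 0.38, limma adjusted p = 0.462). For each of these 5 genes the exact permutation test over mice gave p = 0.1 (two-sided), the smallest that 3 against 3 mice allow.

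Because reads of the Taar7 group are divided between its members, the 6 Taar7 loci were also summed. The controls had a mean of 267 ± 47.5 and the Kir2.1 mice of 158 ± 28.4 (SD, n = 3 each), and the groups did not overlap. The 2 other tested loci of the group had log2 fold changes of -0.25 (Taar7d, limma adjusted p = 0.804) and -0.79 (Taar7e, limma adjusted p = 0.658). Taar8b had 12.2, 23.9 and 10.5 against 8.37, 11.8 and 9.96, which overlap (log2 fold change -0.51, SE 0.43, limma adjusted p = 0.748). The sum of the 3 Taar8 loci was 23.1 ± 4.15 against 13.4 ± 1.25, without overlap. Reads shared with the Taar7 group may still be divided between the 2 sums.

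Taar4, the PEA receptor gene, had 20.4, 27.2 and 39.4 in the controls and 29.2, 25.9 and 29.0 in the Kir2.1 mice. The 3 Kir2.1 mice lay inside the range of the controls. The 95% interval of its log2 fold change ran from -0.73 to 0.73, so changes within these bounds could not be told from none. Taar2, the member with an intron in its coding sequence, had 32.9, 44.7 and 44.4 against 43.4, 49.6 and 38.4, with overlap (log2 fold change 0.11, 95% interval -0.46 to 0.68).

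Taar5, the trimethylamine receptor gene, had 26.5, 34.6 and 34.0 against 25.8, 27.6 and 21.9, overlapping only through control 1 and Kir2.1 mouse 2 (log2 fold change -0.32, 95% interval -0.94 to 0.30). Taar3 had 8.09, 18.5 and 31.7 against 14.001, 16.7 and 19.9 (log2 fold change -0.02, 95% interval -1.21 to 1.16).

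Over the 10 genes, 0 had an adjusted p under 0.05, where 0.353% of all genes tested did. At an unadjusted p under 0.05 there were 4, all lower (Taar6, Taar7a, Taar7f and Taar9), against 6.2% of all genes lower at that p. Of the 1011 Olfr genes tested, 261 were also lower at that p. The groups did not overlap for 5, all lower, against 9.04% of all genes. A log2 fold change below 0 was found in 9 of 10, against 48.8% of all genes, and in 6 of 10 when each mouse was scaled to its Olfr sum, a scaling that moved the median of all genes to 0.44. The median log2 fold change of the 10 was -0.69, and that of all genes 0.0056. Without control mouse 1, which held the vomeronasal signal, 4 genes were again at an unadjusted p under 0.05 and all 10 were below 0.

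The sum of the 10 genes was 342, 478 and 468 in the controls and 264, 292 and 222 in the Kir2.1 mice. The groups did not overlap, and the mean of the Kir2.1 mice (259 ± 35.3) was 60.4% of that of the controls (429 ± 75.9, n = 3 each). Without the Taar7 and Taar8 genes the other 6 summed to 251 ± 50.7 and 171 ± 19.8, again without overlap. The summed Olfr value was 79799 ± 3852 in the controls and 58982 ± 3678 in the Kir2.1 mice, 73.9% of the controls, or -0.44 on the log2 scale. Relative to the Olfr sum the Taar genes made up 0.444%, 0.568% and 0.598% in the controls and 0.437%, 0.473% and 0.405% in the Kir2.1 mice, and on this scale the groups overlapped through control 1.

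Members also differed in their share of the Taar sum. Taar2 made up 9.49 ± 0.14% of it in the controls and 16.9 ± 0.43% in the Kir2.1 mice (n = 3), with no overlap. Taar9 made up 8.46 ± 0.35% and 5.57 ± 1.37%, Taar6 22.0 ± 2.57% and 16.4 ± 3.71%, and Taar4 6.70 ± 1.504% and 10.997 ± 2.12%. Taar5 made up 7.42 ± 0.29% and 9.70 ± 0.22%. The shares of Taar4, Taar5 and Taar9 did not overlap between the groups either, while those of Taar6 did. Shares of 1 total depend on each other, and the normalized counts of Taar2 overlapped between the groups, as given above.

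**Figure D3:**
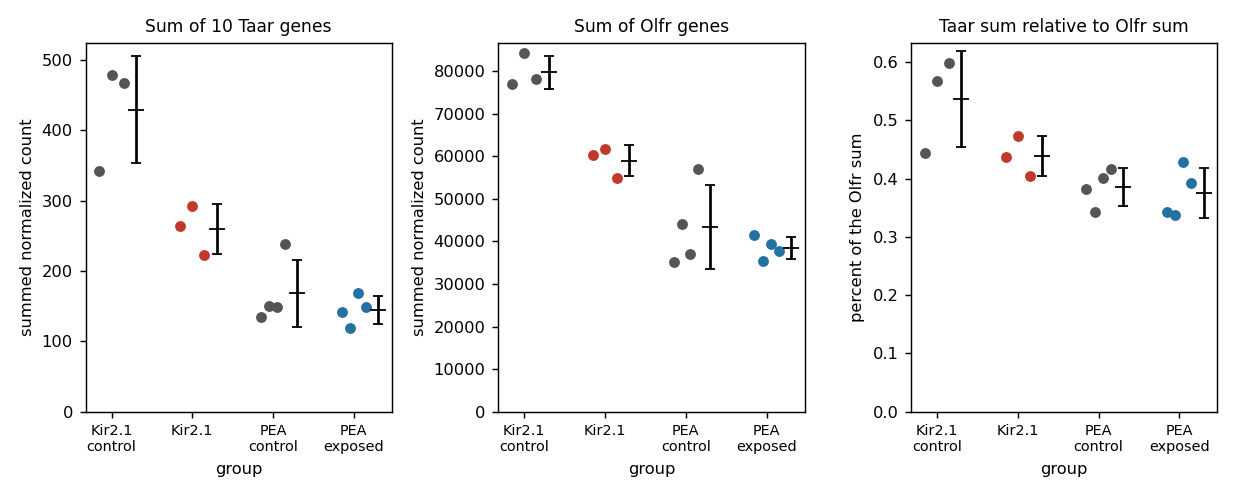
Left, summed normalized count of the 10 Taar genes; centre, summed normalized count of the Olfr genes; right, Taar sum in percent of the Olfr sum. Points are mice, and the bar beside them is the mean ± SD of the group. The 3 Kir2.1 mice lie below the 3 controls in both sums but not in the percentage, and the PEA groups overlap in all 3 panels.

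The genes that serve TAAR neurons were looked at next. In the Kir2.1 mice all 15 genes of the transduction and receptor trafficking list had a log2 fold change below 0, with a median of -0.38, close to the -0.44 of the summed Olfr value. Omp was the 1 that passed (log2 fold change -0.60, SE 0.08, limma adjusted p = 0.0466), and 14 of 15 were lower at an unadjusted p under 0.05, against 6.2% of all genes, of which 48.8% were below 0. Adcy3 (-0.54, limma adjusted p = 0.0720), Rtp2 (-0.45, limma adjusted p = 0.0531) and Cnga2 (-0.34, limma adjusted p = 0.243) did not pass, and were picked after their values were seen. Of 11 regulators of receptor choice such as Lhx2, Ebf1 and Kdm1a, 0 passed and 0 had an unadjusted p under 0.05. Ebf4 had the smallest p (-0.15, limma adjusted p = 0.508). Nqo1, an enzyme of dorsal zone neurons, was at -0.39 (limma adjusted p = 0.285), and Acsm4, also dorsal, at -0.12 (limma adjusted p = 0.748). The ventral marker Ncam2 was at -0.41 (limma adjusted p = 0.412). Of the 1011 Olfr genes tested, 2 passed (Olfr857 and Olfr1213), both lower, 85.0% were below 0 and the median was -0.45. Both red blood cell genes on the list, Hba-a1 and Hbb-bs, were higher at an unadjusted p under 0.05, as 4.93% of all genes were, and their part in the Taar values was not tested. No gene of the lists for immature neurons, sustentacular, basal, ciliated, gland or macrophage cells passed (0 in each), nor did any at an unadjusted p under 0.05. The genes beside the cluster were Vnn1, 15013 bases to its left (0.66, limma adjusted p = 0.450), and Stx7, 39768 bases to its right (0.03).

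In the PEA experiment 1 of the 10 Taar genes, the PEA receptor gene Taar4, had lower values in every exposed mouse than in any control, and none passed adjustment. Taar4 had normalized counts of 14.95, 13.1, 18.6 and 20.5 in controls 1 to 4 and of 7.39, 8.56, 12.4 and 10.7 in exposed mice 1 to 4. The highest exposed mouse, at 12.4, stood just under the lowest control, at 13.1. The log2 fold change was -0.73 (SE 0.32, 95% interval -1.43 to -0.02, limma unadjusted p = 0.0437, adjusted p = 0.319 over 17322 genes). The exact permutation test over mice gave p = 0.0286 (two-sided), the smallest that 4 against 4 allow. PEA was given by cage and no litter or cage is named, so these cannot be told apart from exposure. Taar4 shares no stretch of 31 bases with another gene (0%), so its value did not depend on how reads were divided.

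Taar7b came next, with 16.4, 18.2, 24.1 and 37.5 in the controls against 13.8, 11.3, 17.6 and 12.1 after exposure (log2 fold change -0.72, SE 0.32, limma adjusted p = 0.335). Exposed mouse 3 overlapped with control 1. Taar9 had 12.008, 13.6, 14.7 and 14.6 against 5.70, 9.78, 10.6 and 12.7, with exposed mouse 4 above control 1 (log2 fold change -0.50, SE 0.34, limma adjusted p = 0.515). The exact permutation test gave p = 0.0571 for Taar7b and for Taar9.

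The other tested members overlapped widely. Taar2 had 21.4, 24.9, 17.4 and 17.1 against 20.2, 17.007, 19.8 and 20.8, a log2 fold change of -0.04 with a 95% interval of -0.59 to 0.52. Taar6 was at 23.0 ± 11.5 and 22.0 ± 6.19 (log2 fold change 0.0030, 95% interval -0.77 to 0.77). Taar7a was at 35.8 ± 17.7 and 38.8 ± 10.8 (0.19, 95% interval -0.57 to 0.94), and Taar7f at 17.1 ± 11.3 and 13.7 ± 8.24 (-0.33, 95% interval -1.51 to 0.84). PEA control 4 was the highest mouse of its group for Taar4, Taar6, Taar7a, Taar7b and Taar7f.

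Taar3, Taar5 and Taar8b had a mean under 10 in the PEA experiment and were left out of the main limma fit. The exact permutation test over mice gave p = 0.543, 0.486 and 0.143 for them, in that order. Taar3 lay between 1.86 and 5.01 in the controls and between 0.852 and 6.95 in the exposed mice. Taar5 lay between 5.95 and 13.1 and between 2.53 and 13.6. Taar8b lay between 4.17 and 7.68 and between 5.39 and 10.5. All 3 pairs of ranges overlapped, and at values this low a difference of moderate size was not detectable.

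Of the 7 members tested, 0 had an adjusted p under 0.05, where 0.179% of all genes did. At an unadjusted p under 0.05 there was 1, Taar4, which was lower, as 6.04% of all genes were. The groups did not overlap for 1 of 7, again Taar4, against 3.86% of all genes lower without overlap. A log2 fold change below 0 was found in 5 of 7, against 53.5% of all genes, and the median was -0.33 against -0.022. Without PEA control 3 or 4, or exposed mouse 1, 2 or 4, no member tested was at an unadjusted p under 0.05 (0 by limma). Taar4 was then at -0.67 (limma unadjusted p = 0.1025), -0.63 (0.1055), -0.61 (0.0949), -0.68 (0.0835) and -0.77 (0.0596), in that order of the mouse left out, and at -0.77 (0.0562) without control 1. With Xist as a covariate Taar4 was at -0.74 (limma unadjusted p = 0.0587), and no member tested was under 0.05.

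The sum of the 10 genes was 135, 151, 148 and 238 in the controls and 142, 119, 169 and 148 in the exposed mice. Control 4 stood far above the others, and without it the log2 ratio of the group means was -0.00056 in place of -0.22. The summed Olfr value was 43363 ± 9910 and 38515 ± 2584, with its highest value, 57094, in the same control. In percent of the Olfr sum the Taar genes were at 0.382, 0.342, 0.401 and 0.417 in the controls and at 0.342, 0.338, 0.429 and 0.391 in the exposed mice. Scaling to the Olfr sum thus brought control 4 to within the range of the exposed mice.

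The Taar7 loci summed to 120 ± 52.7 in the controls and 105 ± 20.9 in the exposed mice, and the members outside Taar7 and Taar8 to 85.4 ± 12.04 and 70.4 ± 5.45, both with overlap. Of the 15 transduction and trafficking genes, 0 passed in the PEA experiment. Gnal (-0.37, limma adjusted p = 0.165) and Omp (0.31, limma adjusted p = 0.252) had the smallest p. Of the 15, 8 were below 0, against 53.5% of all genes. Omp was higher in every exposed mouse than in any control. Cnga2 (-0.18, limma adjusted p = 0.335) and Ric8b (-0.25, limma adjusted p = 0.324) were lower in every exposed mouse, as 3.86% of all genes were. Of the 11 regulators of receptor choice 0 passed, with Emx2 at -0.41 (limma adjusted p = 0.245) and Ldb1 at 0.36 (limma adjusted p = 0.270). Nqo1 was at -0.13 and Acsm4 at -0.0028, both dorsal, and the ventral Ncam2 at -0.60 (limma adjusted p = 0.131). Of the 944 Olfr genes tested 2 passed (Olfr890 and Olfr888), both higher, and 67.8% were below 0, with a median of -0.17. Markers of other cell types were higher in part at an unadjusted p under 0.05, as 8.93% of all genes were, and none passed adjustment (0 in each list). Horizontal basal cell genes summed to 698 to 845 in the controls and 922 to 1103 in the exposed mice, with 2 of 3 (Krt14 and Krt5) higher at that p. Sustentacular Cbr2, 1 of 4 on its list, had a log2 fold change of 0.56 (limma adjusted p = 0.0847), and gland Aqp5, 1 of 2, of 0.67 (limma adjusted p = 0.119). Foxj1 of ciliated cells was at 0.51 (limma adjusted p = 0.104), and Gng8, 1 of 4 on the list of immature neurons, at 0.63 (limma adjusted p = 0.270). Cbr2, Aqp5, Foxj1 and Krt14 did not overlap between the groups. The share of all genes that were higher without overlap is not given here, so these genes and Omp cannot be set against it. The sustentacular list as a whole summed to 40856 to 48233 and 45320 to 49710, the gland list to 657 to 809 and 705 to 1026, and the immature neuron list to 15734 to 17870 and 14863 to 16719, each with overlap. Their part in the Taar values was not tested. Vnn1 was at 0.09 and Stx7 at -0.01.

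**Figure D4:**
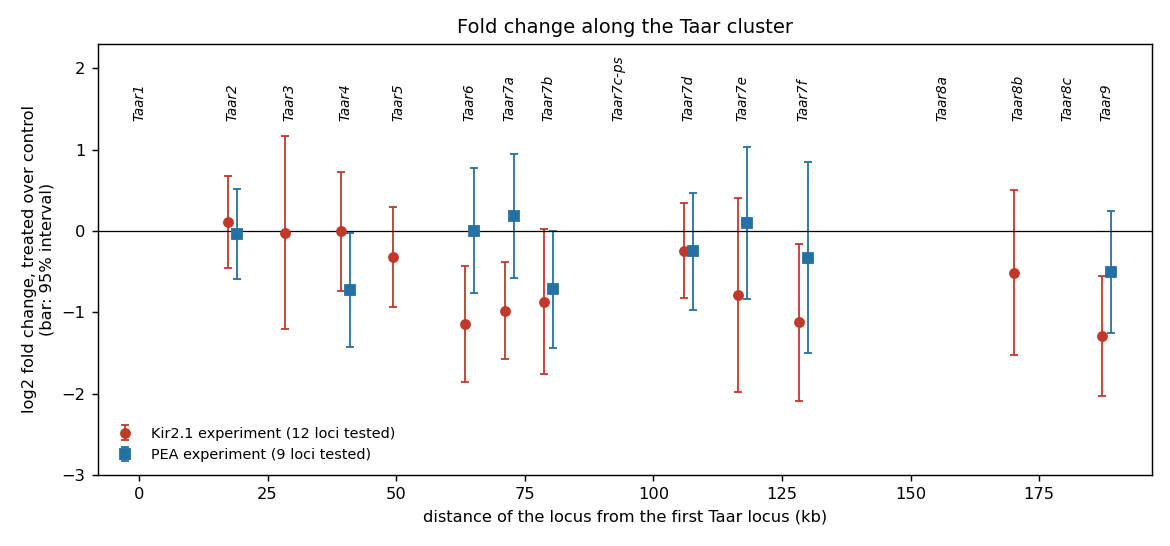
Log2 fold change of each tested Taar locus, treated over control, against its distance from the first Taar locus in kb. Circles are the Kir2.1 experiment (12 loci tested) and squares the PEA experiment (9 loci tested), and bars are 95% intervals. In the Kir2.1 experiment the intervals of Taar6, Taar7a, Taar7f and Taar9 lie below 0 and the other 8 include it, while in the PEA experiment Taar4 is the locus whose interval lies below 0.

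The log2 fold changes in the 2 experiments are given side by side. Taar4 was at -0.0011 in the Kir2.1 mice and -0.73 in the PEA-exposed mice. Taar6 was at -1.15 and 0.0030, and Taar7a at -0.98 and 0.19. Taar9 (-1.29 and -0.50) and Taar7b (-0.87 and -0.72) had values below 0 in both. The libraries differ in kit and read length between the experiments, and the difference between the 2 fold changes of a gene was not tested.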

How the data were processed

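RNA-seq of whole olfactory epithelium from 14 individual mice was used, in 4 groups taken from the sample records. Kir2.1 libraries came from poly-A RNA without strand, as 40 bp reads, and PEA libraries from RNA without ribosomal RNA, with strand, as 150 bp reads. The authors estimated transcript abundance with Salmon 1.3.0 against Ensembl transcripts of GRCm38, summed it per gene and scaled it with DESeq2 1.30.0, so the deposited values are a normalized signal per gene and not whole reads. Depth is unknown, and count tests were not run. The methods describe 1 strand setting for all libraries, and its effect on the unstranded ones cannot be checked here. DESeq2 fold changes of the authors were not used.

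Genes with a mean of at least 10 in an experiment were tested with limma 3.58.1 (R 4.3.3) on log2(value + 1), with a mean-variance trend and Benjamini-Hochberg adjustment over all genes (threshold 0.05). Fold changes on this scale understate those of low genes. Exact permutation tests were run over mice for single genes. The p-values measure the spread between mice. The paper describes odor exposure by a vial in a home cage that held mother and pups, so exposure was given by cage. The sample records used here name no litter or cage. An effect of litter or cage therefore cannot be told apart from that of PEA. Names, positions and coding sequences came from GENCODE vM21 (GRCm38), aligned with MAFFT 7.526. The script was tested on simulated data. All 10 Taar genes, the other Taar symbols, the 2 neighbours, and of each gene list those that passed or else the 2 with the smallest p were to be named. Genes of the cell type and vomeronasal lists were left out, except genes past an unadjusted p of 0.05 on the former. Of these, Stoml3, Cngb1 and Gnal were not named for the Kir2.1 comparison. No values are given for Atf5, Taar7c-ps, Taar8a and Taar8c, although the plan included them. Taar7d and Taar7e, also in the plan, have no value in the text for the PEA comparison. Rtp2, Adcy3, Cnga2 and Ric8b were added after their values were seen. The members and lists were chosen with earlier results of these data known. Levels were divided by coding length in kb. The same-number check of the mice and the alternatives are in the closing section. Sums, shares and plots were made in Python 3.11.15 (pandas 2.3.3, matplotlib 3.10.9, numpy 2.4.6, scipy 1.17.1).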

Additional observations from a re-analysis of the deposited data

Results flagged for a closer look

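Of 28 groups of 4 values tested (each Taar gene and sums in the PEA groups), 3 had a mouse far from the others by Dixon's criterion, all in PEA control 4. Chance gives about 1 in 20 for each group. The groups are not independent, as the flagged sum holds the flagged Taar6 and Taar7f of the same mouse. Taar6 was at 40.1 there, with 0.861 of the range of the group between it and the next mouse. Taar7f was at 33.9 (0.853 of the range), and the sum of the 10 Taar genes at 238 (0.845 of the range). The criterion for 4 mice is 0.829. The same mouse had the highest summed Olfr value of its group (57094) and the lowest mean of vomeronasal receptor genes (0.502 on the log2 scale). Whether these values have a part in its Taar values was not tested.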

How the results depend on the processing

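No Taar gene passed the adjusted threshold under any alternative (0 in 18 for the Kir2.1 and 0 in 19 for the PEA comparison), among them other pseudocounts, filters, normalizations, covariates for Xist and for vomeronasal genes, and each mouse left out. A mean of at least 50 left 1 Taar gene in the Kir2.1 comparison and no value for the count in the PEA comparison. Calls over all genes ranged from 9 (replicate block) to 9866 for Kir2.1, against 70, and from 19 to 52 for PEA, against 31. The 9866 came from scaling each mouse to its summed Olfr value, which moved the median of all genes to 0.44 (0.12 for PEA). On that scale the log2 ratio of the summed Taar value for Kir2.1 was -0.2919 in place of -0.73, 6 of 10 Taar genes were below 0, Taar2 was at 0.54 and Taar4 at 0.42, and Taar9 was at -0.88 (adjusted p = 0.0527 by limma). The range over fits without 1 mouse was -0.8669 to -0.6267 for the Kir2.1 sum and -0.3084 to -0.00056 for the PEA sum. Taar6, Taar7a, Taar7b, Taar7f, Taar8b and Taar9 stayed below 0 in the Kir2.1 comparison under every alternative run, as Taar4, Taar7b and Taar9 did in the PEA comparison, while the sign of Taar2, Taar3, Taar4 and Taar5 turned in the former and of Taar2, Taar6, Taar7a and Taar7f in the latter. The number of Taar genes at an unadjusted p under 0.05 ran from 1 to 5 and from 0 to 3. Taar4 in the PEA comparison lay between -0.90 and -0.56, with an unadjusted p of 0.0052 to 0.122 and an adjusted p of 0.188 to 0.617 by limma. Same-numbered mice did not deviate together (r = -0.06, -0.01 and 0.16 for Kir2.1 and 0.13, -0.02, -0.05 and 0.10 for PEA). PEA control 4 bears library number 5 in its label. The last PEA pair (0.10), and that level of the replicate block, therefore match by replicate and not by library number. The replicate block gave -0.7197 for the Kir2.1 and -0.1898 for the PEA sum and changed no call of a Taar gene. With that block Taar4 was no longer at an unadjusted p under 0.05 in the PEA comparison. Nor was it with the Xist covariate, at an unadjusted p of 0.0587 by limma. Low values limit Taar3, Taar5 and Taar8b in the PEA experiment, and read sharing limits single Taar7 and Taar8 genes at 40 bases.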

Other observations

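The summed Taar value of a mouse, after the mean of its group was taken away (log2 scale, 14 mice), had r = 0.82 with the summed Olfr value. PEA control 4 was the highest of its group in both sums, and without it r was 0.59 (13 mice, added after the data were seen). The genes most alike to it were Lrrc58 (r = 0.93), Btbd11 (0.92), Atrn (0.91), Exoc5 (0.91) and Lpar1 (0.91), the 5 highest of 16696 genes, whose median was 0.011. Without PEA control 4 these 5 were at 0.89, 0.86, 0.86, 0.82 and 0.84, in the same order, and ranked 5, 8, 9, 21 and 11. The median of 927 Olfr genes was 0.37, and 0.17 without that mouse. Among markers, the 2 dorsal genes differed, with Nqo1 at 0.75 (0.61 without that mouse) and Acsm4 at -0.22 (0.14). Ncam2 of ventral neurons was at 0.32 (-0.13) and Omp of mature neurons at 0.0062 (-0.30). Cyp2g1 of sustentacular cells was at -0.75 (-0.64), and the vomeronasal receptor mean at -0.69 (-0.53). These are descriptions over mice that share library type within an experiment.

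Between members, 31 of 45 pairs had a correlation above 0 over the same 14 mice, with a median of 0.18. The highest was that of Taar6 and Taar7a (r = 0.74, and 0.49 without PEA control 4), which are neighbours on the minus strand, and the lowest that of Taar5 and Taar7f (-0.50, and -0.47). Taar3 and Taar4, also neighbours, were at 0.65 (0.69). Other neighbours were lower, with Taar7a and Taar7b at 0.38 (-0.05) and Taar4 and Taar5 at 0.22 (0.33). Taar2 and Taar3 were at 0.18 (0.20), and Taar5 and Taar6 at -0.35 (-0.28). Among pairs that are not neighbours, Taar6 and Taar7f were at 0.70 (0.54) and Taar4 and Taar9 at 0.62 (0.63).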
